A study of Mus musculus with 9 samples.

Results

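Transcripts of 10 secretory genes were followed in synaptoneurosomes, the fraction of brain homogenate enriched in resealed synaptic endings with their attached postsynaptic parts. The genes encode 7 neuropeptide precursors (Penk, Pdyn, Tac1, Crh, Nts, Cartpt and Adcyap1) and 3 acidic secretory proteins of the granin family and its relatives (Scg2, Chgb and Vgf). They were picked by symbol, with earlier results of these data known, and matched 10 of the 22255 Ensembl identifiers in the deposited table. All 9 samples came from the hippocampus of Fmr1 KO mice of the C57Bl/6J strain, so the knockout is shared by both groups. In 4 samples (A, B, C and E) the mice had received AM6545, a CB1 cannabinoid receptor antagonist that enters the brain poorly, given sub-chronically; in 5 samples (A to E) they had received vehicle. The dose, age and sex of the mice are not given in the labels used here. No label says that replicates came from separate animals, so p-values measure the spread between these samples, and wild-type mice are not analysed here.

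Neuropeptides are made as long precursors that enter the secretory pathway, are cut at pairs of basic residues by prohormone convertases and are stored in dense core vesicles. Granins are the bulk proteins of those vesicles: they help to form them and are themselves cut into peptides. Release of dense core vesicles needs stronger or more prolonged activity than release of classical transmitters, and transcription of several of these genes is known to respond to cAMP and calcium through the cAMP response element (CRE), the sequence bound by CREB.

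Promoter windows of 300 bases (250 before and 50 after the transcription start) were found in RefSeq (build GRCm38.p6) for 7 of the 10 genes. Penk, Crh and Vgf had no entry. The full CRE, TGACGTCA, which reads the same on both strands, was in the windows of 3 genes: Scg2, Chgb and Cartpt. Of 32851 windows of this length, 588, or 1.79%, held it. Counted by gene, it was in 549 of 27025 genes with a window, or 2.03%. In the sequences below, written 5′ to 3′ on the strand of the gene, the capitals mark the CRE. Scg2 and Chgb are shown since their levels followed each other most closely of all pairs, and Cartpt since it carries the same element.

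Scg2 (chr1:79440052-79440129, minus strand): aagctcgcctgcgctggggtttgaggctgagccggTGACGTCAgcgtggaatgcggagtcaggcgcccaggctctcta

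Chgb (chr2:132781535-132781612, plus strand): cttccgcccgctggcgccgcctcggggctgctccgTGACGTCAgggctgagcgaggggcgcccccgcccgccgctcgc

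Cartpt (chr13:99900753-99900830, minus strand): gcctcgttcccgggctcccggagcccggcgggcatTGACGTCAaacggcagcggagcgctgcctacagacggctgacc

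The element began 68 bases before the start in Scg2, 72 in Chgb and 112 in Cartpt. Its shorter core, TGACG on either strand, which lies within the full CRE, was also in the windows of Tac1, Nts and Adcyap1. Of all genes with a window, 23.0% held it. The AP-1 site, TGANTCA on either strand, was in the window of Nts and in those of 8.97% of all genes with a window. A match says only that these letters are there. The windows of Pdyn held none of the 3 motifs.

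The samples held 17629017 to 27263574 estimated counts each. Levels are given as CPM, counts scaled to a common library size with TMM factors, and fold changes are those of edgeR's quasi-likelihood fit of all 14512 genes that passed a filter on low counts; all 10 genes passed it. Cell type markers were read first. Each of the 10 markers of hippocampal neurons reached at least 1 CPM in all samples, with a sum of 5811 to 7666 CPM. So did the 10 matched markers of the subiculum and of pallial neurons outside the hippocampus proper. Detection at this level therefore cannot tell hippocampus from neighbouring tissue. Choroid plexus markers varied widely, with sums of 91.2 to 1059 CPM in AM6545 samples and 78.3 to 4689 CPM in vehicle samples; all 13 were lower in AM6545 samples. Pituitary markers summed to 56.0 CPM in vehicle A and to at most 1.45 CPM elsewhere, carried by Gh, which encodes growth hormone. Glial transcripts were abundant as well. Oligodendrocyte markers summed to 12551 to 18394 CPM in AM6545 and 10339 to 21973 CPM in vehicle samples. Astrocyte markers summed to 3776 to 3938 CPM in AM6545 and 2962 to 4716 CPM in vehicle samples. Both sums were lowest in vehicle C. In bulk samples such as these, fewer cells of a type and less RNA per cell cannot be told apart.

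The 10 genes together made up 0.188% to 0.283% of the counts of a sample, and Scg2, Chgb and Vgf held 91.6% to 94.6% of that. Levels of different genes were compared per kilobase, using the median length of each gene's coding transcripts in GENCODE M21. On that scale Chgb was highest, at 541 ± 95.4 CPM per kilobase (SD, n = 9), and Scg2 followed at 241 ± 34.3 (SD, n = 9). Penk, the precursor of the enkephalins, was the highest of the 7 peptide precursors followed here, at 61.2 ± 6.43 CPM per kilobase (SD, n = 9). Chgb lay above Scg2, and Scg2 above Penk, with no overlap of their ranges over the samples. Tac1, at 38.5 ± 4.63 CPM per kilobase, and Vgf, at 36.1 ± 6.63, overlapped (SD, n = 9 each). Pdyn followed at 15.4 ± 2.20, Nts at 9.63 ± 3.21 and Adcyap1 at 6.40 ± 1.14 CPM per kilobase (SD, n = 9 each); Pdyn overlapped Nts and Nts overlapped Adcyap1, while Adcyap1 lay above Crh without overlap. Crh, at 2.75 ± 0.396, and Cartpt, at 2.49 ± 0.821 CPM per kilobase (SD, n = 9 each), formed the bottom of the order and overlapped.

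**Figure D1:**
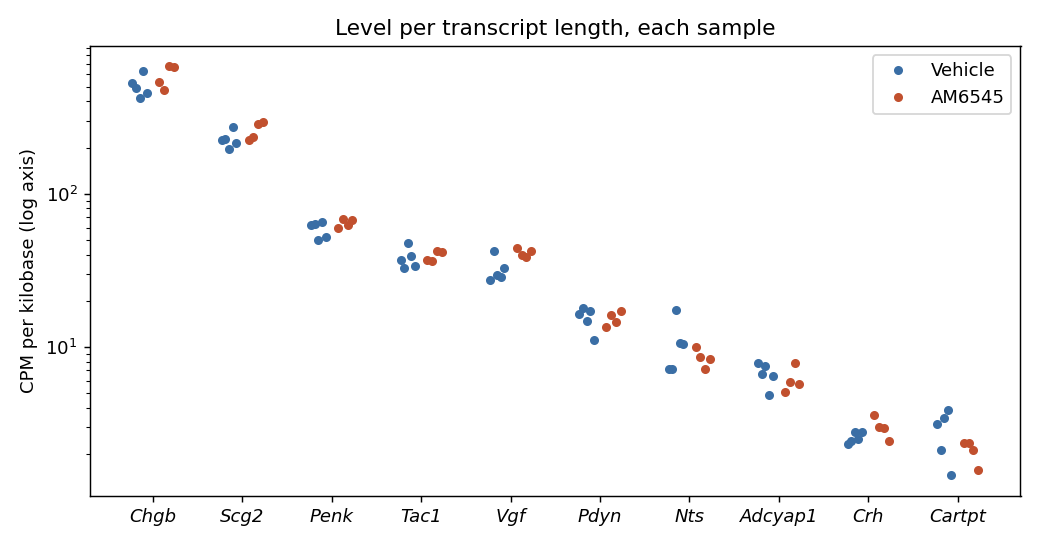
Level of each gene in each sample as CPM per kilobase of coding transcript (log axis), vehicle in blue and AM6545 in red, genes ordered by their mean over 9 samples. Chgb and Scg2 stand above all others, and the order spans from 541 CPM per kilobase for Chgb to 2.49 for Cartpt.

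The comparison of AM6545 with vehicle asks whether transcripts in hippocampal synaptoneurosomes of these mice differ after the drug. None of the 10 genes passed an adjusted p of 0.05, and neither did any other gene: 0 of 14512 tested, or 0%, in edgeR's quasi-likelihood test. DESeq2's Wald test and limma-voom with sample weights called 0 genes as well. At an unadjusted p under 0.05 there was 1 of the 10, Vgf, which was higher. The background at that threshold was 7.21% of all genes, 3.03% higher and 4.18% lower, so 1 of 10 is near it. Of the 10 genes, 6 were higher and 4 lower in AM6545 samples, with 48.2% higher among all genes tested. Their median log2 fold change was 0.09, beside -0.009 over all genes tested. The CPM ranges of the groups overlapped for all 10, whereas they did not for 1.45% of all genes.

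**Figure D2:**
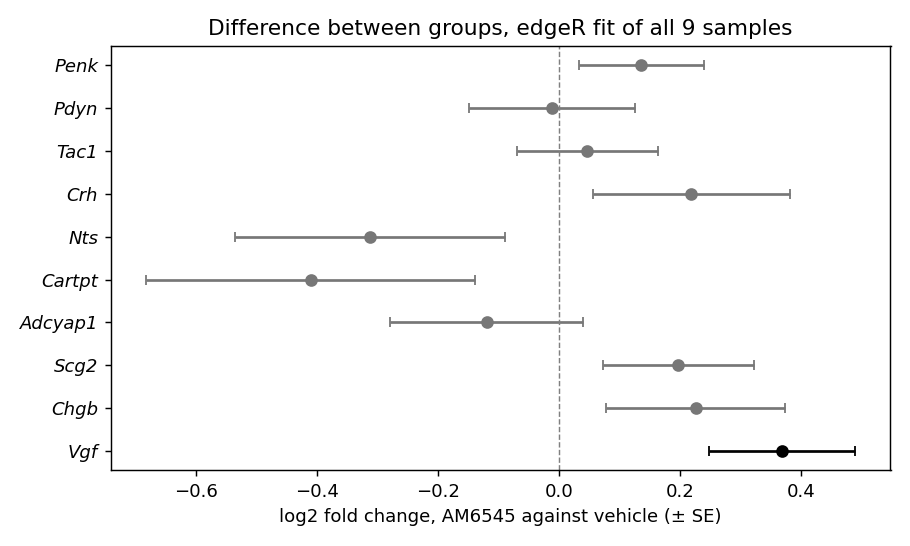
Log2 fold change of each gene, AM6545 against vehicle, with its standard error, from the fit of 4 AM6545 and 5 vehicle samples; black marks an unadjusted p under 0.05. Vgf is farthest to the right at 0.37 and Cartpt farthest to the left at -0.41, and no gene passed after adjustment.

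Vgf, a neurotrophin-inducible gene whose product is cut into peptides with effects on synaptic activity and energy balance, stood at 107 CPM in AM6545 A, 96.3 in B, 93.5 in C and 102 in E. In vehicle it was at 65.9 CPM in A, 101 in B, 70.7 in C, 69.1 in D and 78.7 in E. All 4 AM6545 samples lay above 4 of the vehicle samples, and vehicle B lay within the AM6545 range. Vgf averaged 99.6 ± 5.93 CPM under AM6545 (SD, n = 4) and 77.2 ± 14.3 CPM under vehicle (SD, n = 5). It was higher by 0.37 on the log2 scale (SE 0.12, edgeR quasi-likelihood unadjusted p = 0.00868, adjusted p = 0.653), and alternatives gave adjusted p-values of 0.320 to 0.920. When single samples were left out the difference stayed between 0.32 (without vehicle A) and 0.49 (without vehicle B). Within groups Vgf varied by a coefficient of 5.95% in AM6545 and 18.6% in vehicle samples, where counting error alone would give 2.48% in vehicle.

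Chgb, which encodes chromogranin B, had 1461 CPM in AM6545 A, 1298 in B, 1858 in C and 1836 in E. Vehicle samples had 1437 CPM in A, 1338 in B, 1153 in C, 1726 in D and 1246 in E. AM6545 C and E were above every vehicle sample, while AM6545 A and B lay among them. Chgb averaged 1613 ± 278 CPM under AM6545 (SD, n = 4) and 1380 ± 220 CPM under vehicle (SD, n = 5), and the difference did not pass the test (log2 fold change 0.23, SE 0.15; adjusted p = 0.679 in edgeR's quasi-likelihood test). Leaving out AM6545 C gave 0.15 and leaving out vehicle D gave 0.32.

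Scg2, the precursor of secretoneurin, had the same 3 samples at the top: AM6545 C, AM6545 E and vehicle D. It was at 539 CPM in AM6545 A, 566 in B, 685 in C and 713 in E. In vehicle it was at 543 CPM in A, 547 in B, 471 in C, 655 in D and 514 in E. The groups overlapped, at 626 ± 86.2 CPM (SD, n = 4) and 546 ± 68.1 CPM (SD, n = 5), and Scg2 was higher by 0.20 on the log2 scale under AM6545 (SE 0.12; adjusted p = 0.674 in edgeR's quasi-likelihood test). It ran from 0.13 without AM6545 E to 0.27 without vehicle D. Without vehicle D all 3 of Vgf, Scg2 and Chgb had an unadjusted p under 0.05, all higher, where 2.55% of all genes did, and none passed after adjustment.

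Penk was at 64.8 CPM in AM6545 A, 74.1 in B, 67.6 in C and 73.0 in E. In vehicle it was at 68.2 CPM in A, 68.7 in B, 53.7 in C, 70.7 in D and 56.7 in E. Vehicle C and E were below all other samples, and the rest lay close together. Penk averaged 69.9 ± 4.44 CPM under AM6545 (SD, n = 4) and 63.6 ± 7.80 CPM under vehicle (SD, n = 5), a difference of 0.14 on the log2 scale (SE 0.10; adjusted p = 0.716 in edgeR's quasi-likelihood test) that was 0.081 without vehicle C. A gene model on the opposite strand, A830012C17Rik, shares exon bases with Penk in M21, and with no strand setting given the reads of both cannot be told apart.

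Pdyn encodes prodynorphin, the source of the dynorphins, which act on the kappa opioid receptor and are stored in the mossy fibre terminals of dentate granule cells. Its levels in AM6545 samples were 18.6 CPM in A, 22.3 in B, 19.9 in C and 23.6 in E. In vehicle samples they were 22.6 CPM in A, 24.8 in B, 20.2 in C, 23.6 in D and 15.2 in E. Vehicle E was the lowest of all 9 samples for Pdyn, and the groups overlapped. The log2 fold change was -0.01 (SE 0.14, edgeR quasi-likelihood adjusted p = 0.984). Markers of dentate granule cells summed to 713 to 769 CPM in AM6545 samples and 629 to 751 CPM in vehicle samples.

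Tac1, the precursor of substance P and neurokinin A, was at 30.7 CPM in AM6545 A, 30.1 in B, 35.2 in C and 34.9 in E. In vehicle samples it was at 30.6 CPM in A, 27.3 in B, 39.6 in C, 32.8 in D and 28.2 in E. The AM6545 range lay wholly inside the vehicle range. Tac1 differed by 0.046 on the log2 scale (SE 0.12, edgeR quasi-likelihood adjusted p = 0.923), from 0.00094 without vehicle B to 0.14 without vehicle C. Markers of the striatum, where Tac1 and Penk are abundant, summed to 149 to 190 CPM in AM6545 and 164 to 215 CPM in vehicle samples; their part in these levels was not tested.

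Nts encodes neurotensin, which is found in the hippocampal formation mainly in the subiculum. It was at 12.5 CPM in AM6545 A, 10.7 in B, 8.88 in C and 10.3 in E. In vehicle it was at 8.95 CPM in A, 8.97 in B, 21.6 in C, 13.2 in D and 13.02 in E. Vehicle C stood far above all other samples, AM6545 C lay below every vehicle sample, and the others overlapped. Its log2 fold change, -0.31 (SE 0.22; adjusted p = 0.701 in edgeR's quasi-likelihood test), was -0.064 without vehicle C. Markers of the subiculum and of pallial neurons outside the hippocampus proper were also highest there, at a sum of 425 CPM against 279 to 368 CPM in AM6545 samples and at most 354 CPM in the other vehicle samples. The sums of hippocampal neuron markers (7666 CPM) and of mossy cell markers (379 CPM) were also highest in vehicle C. Their part in the Nts level was not tested.

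Crh, corticotropin-releasing hormone, is made in the hippocampus by a subset of interneurons and acts on local stress responses. It was at 4.76 CPM in AM6545 A, 3.94 in B, 3.86 in C and 3.22 in E. In vehicle it was at 3.06 CPM in A, 3.22 in B, 3.66 in C, 3.30 in D and 3.66 in E. In 3 of 4 AM6545 samples Crh was above every vehicle sample, and AM6545 E lay within the vehicle range. These levels rest on 53 to 93 counts a sample, and the vehicle samples varied by 7.94%, less than the 11.6% that counting error alone would give. Crh differed by 0.22 on the log2 scale (SE 0.16, edgeR quasi-likelihood adjusted p = 0.712), and 0.12 without AM6545 A.

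Cartpt, the precursor of the CART peptides known for their part in feeding and reward, had the lowest level. It was at 2.43 CPM in AM6545 A, 2.41 in B, 2.19 in C and 1.63 in E. Vehicle samples had 3.24 CPM in A, 2.20 in B, 3.55 in C, 3.97 in D and 1.495 in E. The vehicle samples spread on both sides of the AM6545 range, and no AM6545 sample exceeded the vehicle mean of 2.89 ± 1.02 CPM (SD, n = 5). Its log2 fold change, -0.41 (SE 0.27; adjusted p = 0.681 in edgeR's quasi-likelihood test), rests on 38 to 94 counts a sample; it was -0.26 without vehicle D and 0.021 with limma-voom sample weights. Without vehicle E it was -0.58 with an unadjusted p of 0.028 in edgeR's quasi-likelihood fit, where 4.47% of all genes were lower at that threshold.

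Adcyap1 encodes PACAP, a peptide that raises cAMP through its receptor Adcyap1r1. It was at 8.68 CPM in AM6545 A, 10.1 in B, 13.4 in C and 9.77 in E. In vehicle it was at 13.6 CPM in A, 11.3 in B, 12.9 in C, 8.29 in D and 11.1 in E. Both groups covered almost the same range. The log2 fold change was -0.12 (SE 0.16, edgeR quasi-likelihood adjusted p = 0.835), from -0.041 without AM6545 A to -0.26 without AM6545 C.

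**Figure D3:**
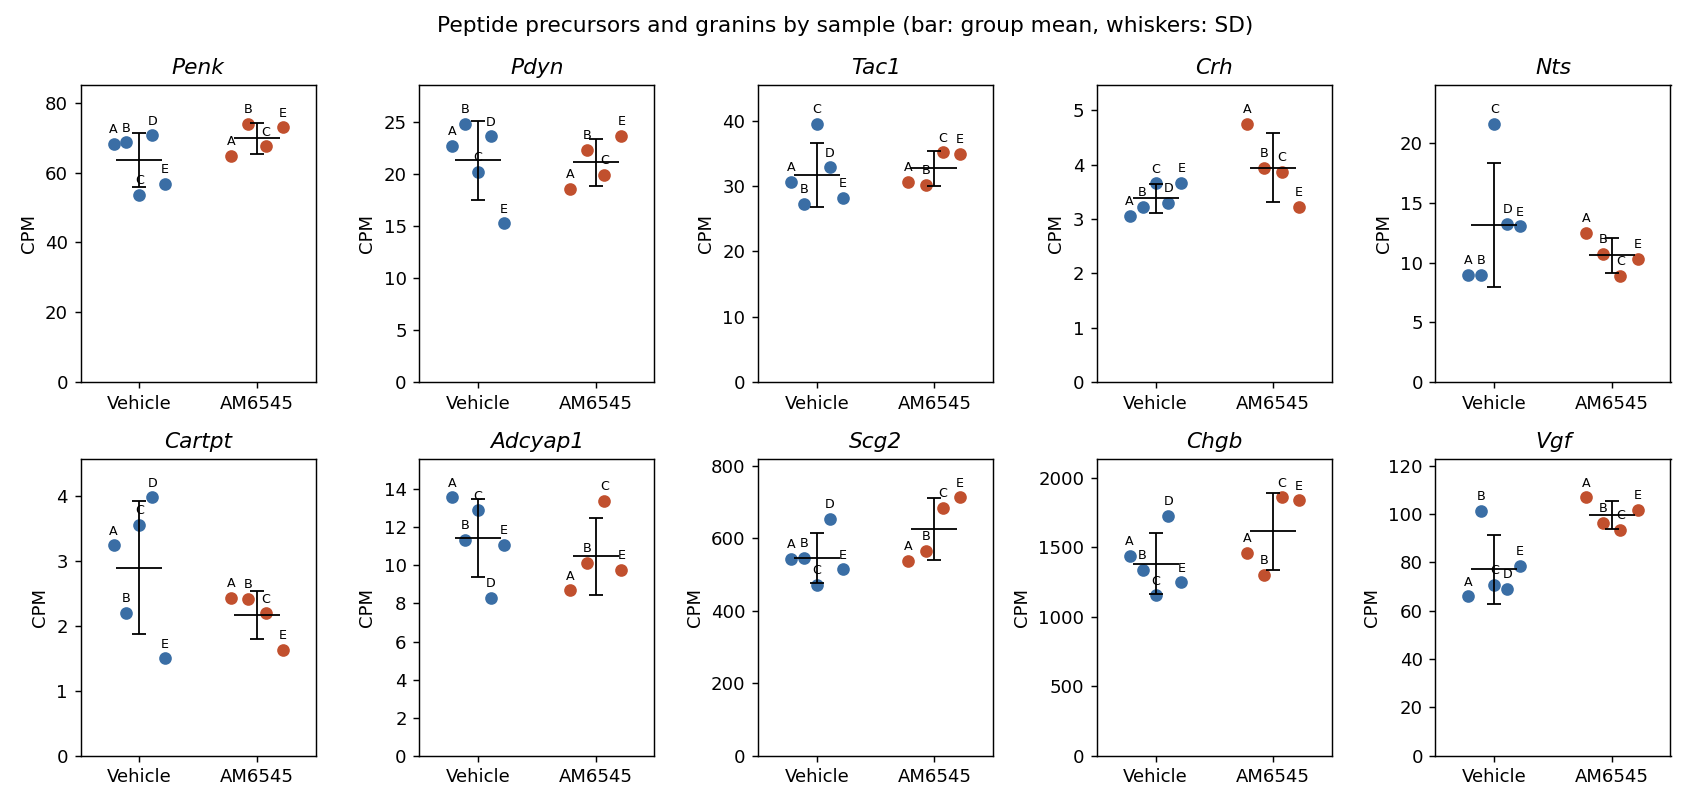
CPM of each gene in 5 vehicle (blue) and 4 AM6545 (red) samples, labelled by replicate letter; the bar is the group mean and the whiskers are the SD. For Vgf the AM6545 samples sit between 93.5 and 107 CPM with only vehicle B among them, and for Nts vehicle C stands apart at 21.6 CPM.

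The genes differed in how much they varied between replicates. Cartpt and Nts varied most in vehicle samples, by coefficients of 35.3% and 39.3%, where counting error alone would give 13.1% and 6.18%. Their biological coefficients of variation in the edgeR fit ranked at the percentiles 91.0 (Cartpt) and 85.9 (Nts) of all genes tested. Penk varied least by that measure, at the percentile 18.0, and the granins stood at 60.1 (Chgb), 41.5 (Scg2) and 40.3 (Vgf).

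Among themselves the 10 genes formed 45 pairs, of which 22 had a positive and 23 a negative correlation of log2 CPM over the 9 samples. Scg2 and Chgb followed each other most closely, with Pearson's r = 0.95 (n = 9, two-sided exact permutation p = 0.000405, Benjamini-Hochberg adjusted p = 0.0182 over the 45 pairs). Spearman's rho was 0.82 (n = 9, exact permutation p = 0.0108, adjusted p = 0.481). With the group means removed r was 0.94, and without AM6545 C and AM6545 E, the samples farthest from the median, it was 0.90. Both transcripts were high in AM6545 C, AM6545 E and vehicle D, so the relation crossed the treatment groups. Over the 6 other samples r was 0.72 (exact permutation p = 0.0986) and rho 0.43 (exact permutation p = 0.419), so the close relation over 9 samples rests largely on those 3. The ratio of Chgb to Scg2 counts stayed between 2.29 and 2.71 in all samples. The other 44 pairs did not pass after adjustment, and 3 of them had an unadjusted exact permutation p under 0.05: Penk with Nts, Scg2 and Pdyn. For Penk and Nts r was -0.73 (n = 9, exact permutation p = 0.0256, adjusted p = 0.456; rho -0.32, exact permutation p = 0.410), and 0.046 without vehicle C and vehicle E. For Penk and Pdyn, the opioid precursors, r was 0.69 (n = 9, exact permutation p = 0.0405, adjusted p = 0.456; rho 0.68, exact permutation p = 0.0503), and 0.64 without vehicle C and vehicle E. For Penk and Scg2 r was 0.72 (n = 9, exact permutation p = 0.0308, adjusted p = 0.456; rho 0.77, exact permutation p = 0.0214), and 0.39 without vehicle C and vehicle E. Cartpt, which shares the CRE with Scg2 and Chgb, had r = -0.20 with Scg2 (n = 9, exact permutation p = 0.600, rho -0.23). With Chgb its r was -0.092 (n = 9, exact permutation p = 0.809, rho -0.12). These values were unstable. Without vehicle D and vehicle E r was -0.84 with Scg2 and -0.73 with Chgb. With the group means removed it was -0.0018 and 0.11. Any link between the CRE and these correlations was not tested.

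**Figure D4:**
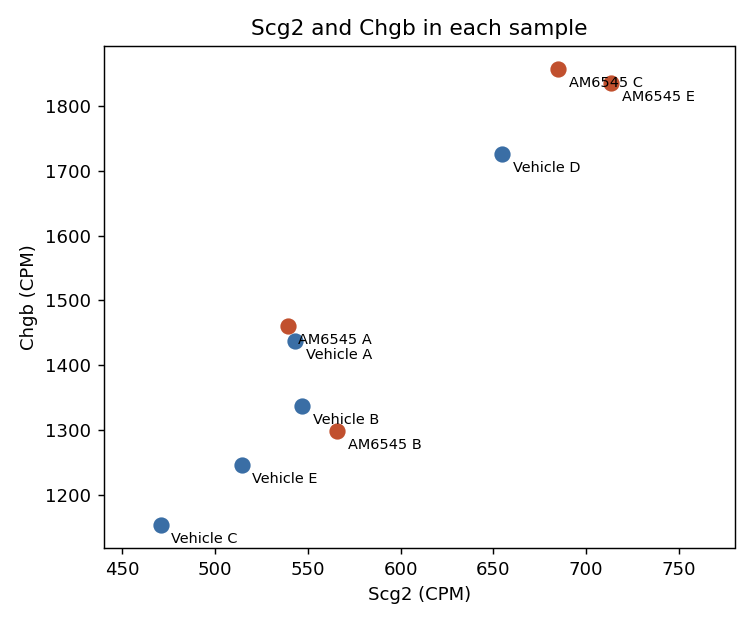
Chgb against Scg2 in CPM, 1 point a sample, vehicle in blue and AM6545 in red; the axes do not start at 0. AM6545 C, AM6545 E and vehicle D lie apart at the upper right, from 655 to 713 CPM of Scg2, and the 6 other samples at 471 to 566 CPM.

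For each gene, the 3 most similar of the other genes tested were found by r over the 9 samples with group means removed, a description without a test, since each is the top of all the other genes tested. Chgb was most like Vmp1 (r = 0.99), Slc30a6 and Slc4a7 (both r = 0.98), and Scg2 most like Nceh1, Tmub2 and Ncam1 (all r = 0.97). For Scg2, 28 of 14511 other genes had a higher r than Chgb did, so the closeness of these genes is shared with others. Vgf was most like Kcnh3, Llgl1 and Sdcbp2 (r = 0.96, 0.95 and 0.94), and Penk most like the potassium channel Kcnc1, Tor4a and Hexa (r = 0.97, 0.96 and 0.96). Pdyn was nearest to Lrrn4cl, Ntn1 and Pigz (r = 0.97, 0.95 and 0.94), and Tac1 to Fam133b, Hnmt and Fam118b (r = 0.97, 0.96 and 0.96). Crh came nearest to Gins3, Scnn1a and Dnajb1 (r = 0.96, 0.95 and 0.95), Nts to Sytl2, Gm2974 and Gramd2 (r = 0.98, 0.98 and 0.95), and Adcyap1 to Zfp563, Tnfrsf13c and Slfn9 (r = 0.97, 0.95 and 0.94). Cartpt was nearest to Cysltr1, Klk8 and Resp18 (r = 0.93, 0.92 and 0.92), of which Resp18 is itself a protein of dense core vesicles.

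The machinery that cuts peptide precursors and forms dense core vesicles was read as a list of 16 genes, all tested. No gene of it passed after adjustment (smallest edgeR quasi-likelihood adjusted p = 0.653). In AM6545 samples 12 were higher and 4 lower, where 48.2% of all genes tested were higher. The median log2 fold change was 0.11. With an unadjusted p under 0.05 were 3 genes, all higher, against 3.03% of all genes tested. Ptprn2, a membrane protein of dense core vesicles, was at 16.3 CPM in AM6545 and 12.2 CPM in vehicle samples (log2 fold change 0.41, SE 0.13). Its groups did not overlap, which held for 1.45% of all genes tested. The margin was small, with the lowest AM6545 sample at 15.25 CPM and the highest vehicle sample at 15.04 CPM. Pcsk2, the prohormone convertase PC2, was at 231 and 194 CPM (0.25, SE 0.11), and Chga, chromogranin A, at 262 and 221 CPM (0.24, SE 0.11). Without vehicle A, 15 of the 16 were higher, where 7050 of 14441 genes tested were. In that fit 1, Ptprn2, had an unadjusted p under 0.05, against 1.61% of all genes higher. The count depended on the sample left out: it was 10 higher and 6 lower without AM6545 E, vehicle C or vehicle E. Without vehicle E the median fell to 0.062. Cpe, the carboxypeptidase that trims the cut peptides, was by far the most abundant of the list in counts, at 9079 CPM in AM6545 and 9115 CPM in vehicle samples (log2 fold change -0.0057).

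Of the 7 peptide precursors followed here, 3 were higher and 4 lower, with a median log2 fold change of -0.01. A list of other peptide precursors was mostly lower in AM6545 samples. Of its 19 genes, 13 were tested, 1 higher and 12 lower in AM6545 samples, where 7516 of 14512 genes tested were lower. Their median log2 fold change was -0.23 and none passed the adjusted threshold. The abundant interneuron peptides were among them. Sst, somatostatin, was at 182 CPM in AM6545 and 217 CPM in vehicle samples (log2 fold change -0.26, SE 0.12). Npy, neuropeptide Y, was at 39.3 and 46.3 CPM (-0.23, SE 0.11). Cck and Vip, of similar abundance, differed less. Cck was at 188 and 205 CPM (-0.12, SE 0.13) and Vip at 42.7 and 47.1 CPM (-0.14, SE 0.098). None of these had an unadjusted p under 0.05. At that threshold there were 3, all lower, against 4.18% of all genes: Grp, gastrin-releasing peptide (-0.27, SE 0.11), Calca, the precursor of calcitonin and CGRP (-0.56, SE 0.22), and Pomc, pro-opiomelanocortin (-2.74, SE 1.03). Pomc was at 23.0 CPM in vehicle A, the sample with pituitary transcripts, and at most 1.10 CPM elsewhere, and its log2 fold change was -0.22 without vehicle A. Without that sample 10 of 13 were lower and 0 had an unadjusted p under 0.05, against 1.82% of all genes lower, and with limma-voom sample weights 9 were lower. Markers of inhibitory interneurons summed to 644 to 773 CPM in AM6545 and 598 to 711 CPM in vehicle samples, lowest in vehicle A.

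Receptors and binding proteins of these peptides were read as a list of 16 genes. Of the 14 tested, 10 were higher and 4 lower in AM6545 samples, where 48.2% of all genes tested were higher. The median log2 fold change was 0.14, and none had an unadjusted p under 0.05. The most abundant were Sort1, a sorting receptor that binds neurotensin, at 268 CPM in AM6545 and 235 CPM in vehicle samples (log2 fold change 0.19, SE 0.12), and Ntsr2, a neurotensin receptor, at 197 and 209 CPM (-0.086, SE 0.13). Oprm1, the mu opioid receptor, did not pass the filter on low counts, with 12 counts or fewer in each sample. The median of the list was 0.044 without AM6545 E.

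**Figure D5:**
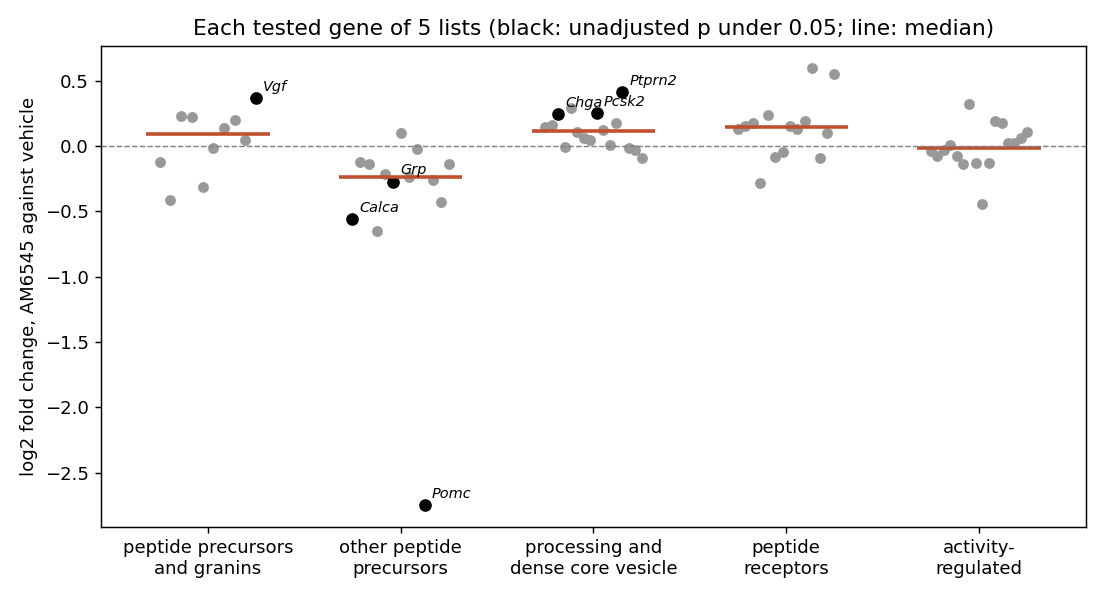
Log2 fold change of each tested gene, AM6545 against vehicle, in 5 lists, with the median as a line; black points have an unadjusted p under 0.05 and none passed after adjustment. The medians are 0.09 for the 10 peptide precursors and granins, -0.23 for other precursors, 0.11 for processing genes, 0.14 for receptors and -0.02 for activity-regulated genes; Pomc at -2.74 rests on vehicle A.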

How the data were processed

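The table deposited by the authors gives estimated counts for each gene in 9 samples, with 22255 Ensembl identifiers and no column left without a sample. The submitters' processing notes name Salmon 1.3, DESeq2 1.30 and the builds GRCm39 and mm10, without a role or order. The gene model and strand setting are not given in the sources used here, so counts of overlapping genes are uncertain. The library kit was a SMARTer kit for ultra low input, per the labels' protocols.

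Symbols were matched for 22155 identifiers by Ensembl identifier without its version. Counts were rounded, genes kept by filterByExpr, and libraries scaled with TMM. Groups were compared by the quasi-likelihood F-test of edgeR 4.0.16 (R 4.3.3) with Benjamini-Hochberg adjustment over all 14512 genes tested, after the code was tested on simulated data. Standard errors are the absolute log2 fold change over the square root of F. Correlations used log2 CPM with a prior count of 2 and all orders of the samples (scipy 1.17.1, numpy 2.4.6). The expected counting error is the root mean of the inverse counts. DESeq2 1.42.0 and limma 3.58.1 served as alternatives. The genes, lists and markers were chosen with earlier results of these data known. Named from each list were genes with an unadjusted p under 0.05, or, with none, the 2 of highest mean CPM. Other genes were added after their values were seen: Sst, Npy, Cpe, Oprm1, Cck, Vip, Pnoc, Cort, Tac2, Gal, Edn3, Nmb, Gh and Prl. The subiculum and pallial markers named singly were too. The marker symbols Dlx6os1 and Ctgf matched no identifier. Samples were not paired by replicate letter in the main fit. Between samples of the same letter, deviations from the group means correlated at over 0.1 only for letter C (r = 0.34).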

Additional observations from a re-analysis of the deposited data

How the results depend on the processing

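When single samples were left out, the number of genes past the adjusted threshold ran from 0 to 1 (1 without AM6545 A, and not one of the 10), and the number at an unadjusted p under 0.05 from 496 (without vehicle A) to 1848 (without AM6545 E), beside 1047 with all samples; it was 663, 642 and 690 without AM6545 A, B and C, 1797 without vehicle B and 1823 with limma-voom sample weights. With the letter as a replicate block the number at an unadjusted p under 0.05 was 759, and no gene was called after adjustment. Among the lists, processing genes at that unadjusted threshold went from 3 to 2 and other precursors from 3 to 2. Only letter C matched its own letter best (r = 0.34). Whether samples of the same letter share any handling cannot be told from these values. The log2 fold change of Pdyn changed sign with limma-voom weights (0.045), the replicate block (0.043) and the mean difference of log2 CPM (0.00061), and ran from -0.11 to 0.056 with samples left out; Cartpt changed sign with limma-voom weights (0.021). No other of the 10 genes changed sign under any alternative run, and none passed the adjusted threshold. The number of pairs that passed was 0 with Spearman's rho and 0 to 1 with samples left out (0 without AM6545 C, AM6545 E, vehicle C, vehicle D or vehicle E), while r of Scg2 and Chgb stayed between 0.94 and 0.98. Depth limits Cartpt and Crh, at under 100 counts a sample. The cause of these shifts was not tested.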

Other observations

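Activity-regulated genes, among them the immediate early genes, are induced by strong neuronal firing through some of the same promoter elements as the peptide precursors. All 16 of the list were tested, 8 were higher and 8 lower in AM6545 samples, with a median log2 fold change of -0.02, and none had an unadjusted p under 0.05. The most abundant were Egr1, at 126 CPM in both groups (log2 fold change 0.0042, SE 0.11), and Bdnf, the neurotrophin that induces Vgf, at 103 CPM in AM6545 and 109 CPM in vehicle samples (-0.075, SE 0.090).

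Vehicle A held transcripts of anterior pituitary hormones: Gh was at 51.8 CPM there and at most 1.40 CPM in the other samples, and Prl, prolactin, at 3.004 CPM against at most 0.118 CPM. Vgf was at its lowest in vehicle A, at 65.9 CPM, and Npy, Sst and Cck at their highest. Of the other peptide precursors tested, Pnoc, Cort, Tac2, Pomc, Gal, Calca and Edn3 were also highest in vehicle A. Vip and Grp were highest in vehicle C, and Nmb in vehicle D. Without vehicle A, 7 of the 10 genes were higher and 3 lower in AM6545 samples, where 7050 of 14441 genes tested were higher.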
